A study of Mus musculus with 5 samples.

Results

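The endothelial cells of the kidney's arteries, arterioles and descending vasa recta were taken from single-cell RNA libraries of mouse kidney. A barcode (the tag of a droplet, in most cases of 1 cell) was a member when it had at least 200 genes detected and at most 30% of its unique molecular identifiers (UMIs, counts of captured RNA molecules) from mitochondrial genes, when Sox17, Gja4, Gja5 and Fbln5 together gave at least 3 UMIs and Egfl7, Pecam1 and Cldn5 at least 2, and when Plvap gave at most 1, Ptprc 0 and C1qa, C1qb and C1qc together at most 2. This rule found 318 members among 60043 barcodes that passed the limits on genes and mitochondrial UMIs, of 72896 deposited. The control library held 133 members, the libraries AKI 1 and AKI 2 held 26 and 42, and CKD 1 and CKD 2 held 100 and 17. They are compared below with 1284 capillary endothelial cells of the same libraries, or with a stated part of them. These cells had at least 3 Plvap UMIs and none of the 4 arterial genes.

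All mice were male C57BL/6 wild-type animals of 8 to 10 weeks. Aristolochic acid I (AAI), a plant nephrotoxin that forms DNA adducts in the proximal tubule, was injected into the peritoneum at 3 mg/kg every 3 days over 2 weeks, and kidneys taken at the end of dosing made the AKI group (n = 2 libraries). The CKD group (n = 2) was taken after 2 more weeks without AAI, and the control group was a single library (n = 1) from vehicle-treated mice. How many animals stand behind a library is not given, so p-values below measure only the spread between libraries, and the lone control is assumed to vary as the AKI and CKD libraries do.

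Blood enters the kidney through arteries and afferent arterioles, passes the glomerular capillaries, leaves by efferent arterioles and then runs through peritubular capillaries or, below the glomeruli next to the medulla, down the descending vasa recta into the hypertonic medulla. Arterial endothelium is specified by VEGF and Notch signalling with the transcription factor Sox17, and is joined by the gap junction proteins connexin 37 (Gja4) and connexin 40 (Gja5). Fibulin 5 (Fbln5) anchors elastic fibres in the vessel wall. Descending vasa recta endothelium carries the urea transporter UT-B (Slc14a1) and the water channel Aqp1, while capillary endothelium is fenestrated and carries Plvap in its fenestral diaphragms.

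Library size and quality bear on these cells. Members had a median of 4364 to 7722 UMIs per library and a median mitochondrial share of 2.83 to 5.88%. In the control library 38.7% of barcodes were over the mitochondrial limit, against 11.1 to 12.7% in the other 4. Control and CKD 2 had 132 kept barcode sequences in common, against 19 to 64 for the other pairs, but no member of control had its sequence on a deeper CKD 2 barcode. Kidney dissociation, RNA content per cell and capture all bear on a count of cells: fewer cells of a type and less RNA per cell cannot be told apart in sums over a library.

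The genes of the rule gave the following levels, which describe the choice of cells and were not tested. Levels are counts per 1000000 (CPM), the UMIs of a gene over all UMIs summed over the members of a library, for the 272 members described below as endothelial-rich. Sox17 was 619 in control, 842 and 957 in AKI and 878 and 999.5 in CKD. Gja4 was 448 in control, 289.7 and 415 in AKI and 335 and 264 in CKD, and Gja5 was 209.5 in control, 156 and 142 in AKI and 156 and 90.9 in CKD. Among these genes Fbln5 had the widest spread, at 1165 in control, 401 and 569 in AKI and 506 and 399.8 in CKD. Cldn5, the tight-junction claudin of endothelium, was even across libraries at 1427 to 1919 in members and 25.5 to 73.2 in capillary cells, where the rule did not ask for it by itself. Just inside the limit, 15 control members, 2 and 4 AKI members and 24 and 2 CKD members had exactly 3 arterial UMIs. Just outside it, 14, 4, 2, 40 and 2 barcodes of these libraries met every other limit and had 2. With exactly 1 Plvap UMI there were 47, 9, 16, 28 and 8 members in control, AKI 1, AKI 2, CKD 1 and CKD 2, and 31, 6, 8, 13 and 6 otherwise eligible barcodes had 2.

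Some members met the limits because they were deep, not because endothelial genes made up much of their RNA. In CKD 2, the deepest members had 82287 and 63681 UMIs, only 2 and 6 of them from Egfl7, Pecam1 and Cldn5, and together made up 52.8% of the member UMIs of that library. The first was led by Slpi, Crct1, Prdx1 and Fth1 and the second by Ankrd1, Sfn, Krt8, Cldn4 and Nupr1, among which keratin 8 and claudin 4 are epithelial genes. Members with at least 1 UMI of Egfl7, Pecam1 and Cldn5 per 1000 UMIs are therefore called endothelial-rich here, a limit set after these cells were seen. It kept 272 of 318 members: 114 in control, 22 and 38 in AKI and 85 and 13 in CKD. Capillary levels and tests set beside endothelial-rich members use the capillary cells that met the same limit. These were 622 in control, 99 and 127 in AKI and 162 and 109 in CKD. Sums of marker lists and shares of capillary cells with a UMI use all capillary cells. Of all members, 21 lay below 0.5 per 1000, 25 between 0.5 and 1, 36 between 1 and 1.5 and 236 at or above 1.5. Values are given below for endothelial-rich members unless all members are named, and calls are given for both.

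The label was checked against markers of other cells. The 12 proximal tubule markers summed to 504 to 3059 CPM in members, highest in CKD 1 with all 12 detected, and to 683 to 6317 in capillary cells. The 10 loop, distal and duct markers summed to 63.6 to 1343 in members, highest in control, and to 736 to 4045 in capillary cells. Whether this RNA came from other cells was not tested. Smooth muscle and pericyte transcripts were also present: the 8 mural markers summed to 1711 to 3062 CPM in members and 8.39 to 103 in capillary cells. Acta2, smooth muscle actin, had a UMI in 25.4% of control members (29 of 114, exact binomial 95% interval 17.7 to 34.4%) and in 2 of 22, 6 of 38, 22 of 85 and 1 of 13 members of AKI 1, AKI 2, CKD 1 and CKD 2. In capillary cells the share with an Acta2 UMI was 0.741 to 3.65% per library. In AKI 1 and CKD 2 a single cell held 99.6% and 100% of the Acta2 UMIs. The 7 fibroblast markers summed to 53.6 CPM in control (56 UMIs, 6 of 7 detected), 13.4 and 46.1 in AKI (2 and 4 detected) and 25.3 and 9.09 in CKD (2 and 1 detected), against 0 to 10.5 in capillary cells, with Pdgfra, Dcn and Lum at 0 in AKI 1, CKD 1 and CKD 2 and Dpt at 0 in all 5. Of the podocyte markers Nphs1 was at 0 in all 5 libraries and Podxl, which endothelium also expresses, gave nearly all of the sum. Whether mural RNA was bound to the same droplets or made by the cells was not tested.

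Members made up a larger share of the control library than of the injured ones, and no such difference appeared among endothelial cells alone. Members were 1.45% of kept barcodes in control (exact binomial 95% interval 1.22 to 1.72%), 0.232% (0.152 to 0.340%) and 0.387% (0.279 to 0.523%) in AKI, and 0.518% (0.421 to 0.629%) and 0.179% (0.104 to 0.286%) in CKD. All 4 injured libraries lay below control, and AKI and CKD overlapped. Of endothelial cells (Egfl7, Pecam1 and Cldn5 at least 2 UMIs, no Ptprc), members were 9.16% (7.73 to 10.8%) in control, 7.22% (4.77 to 10.4%) and 11.9% (8.74 to 15.8%) in AKI and 12.5% (10.3 to 14.96%) and 6.80% (4.01 to 10.7%) in CKD. The control value lay inside the range of the others. CKD minus AKI was 0.0387 percentage points of kept barcodes. With 2 libraries against 2 no permutation test can reach 0.05, so none was made. The intervals cover counting error only. T lymphocyte-type barcodes were 1118 in control and 5628 to 7630 in the others. Without them in the denominator members were 1.65% (1.39 to 1.96%) in control, 0.512% (0.334 to 0.749%) and 0.852% (0.615 to 1.15%) in AKI and 0.856% (0.697 to 1.04%) and 0.438% (0.256 to 0.701%) in CKD, with control still highest. Members with under 2 UMIs of each set of lymphocyte, tubule and smooth muscle markers numbered 46 in control, 17 and 32 in AKI and 48 and 12 in CKD. Of kept barcodes they were 0.502% (0.368 to 0.669%) in control, 0.152% (0.0884 to 0.243%) and 0.295% (0.202 to 0.416%) in AKI and 0.249% (0.183 to 0.329%) and 0.126% (0.0652 to 0.220%) in CKD. Control was still highest, but its interval overlapped that of AKI 2.

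**Figure D1:**
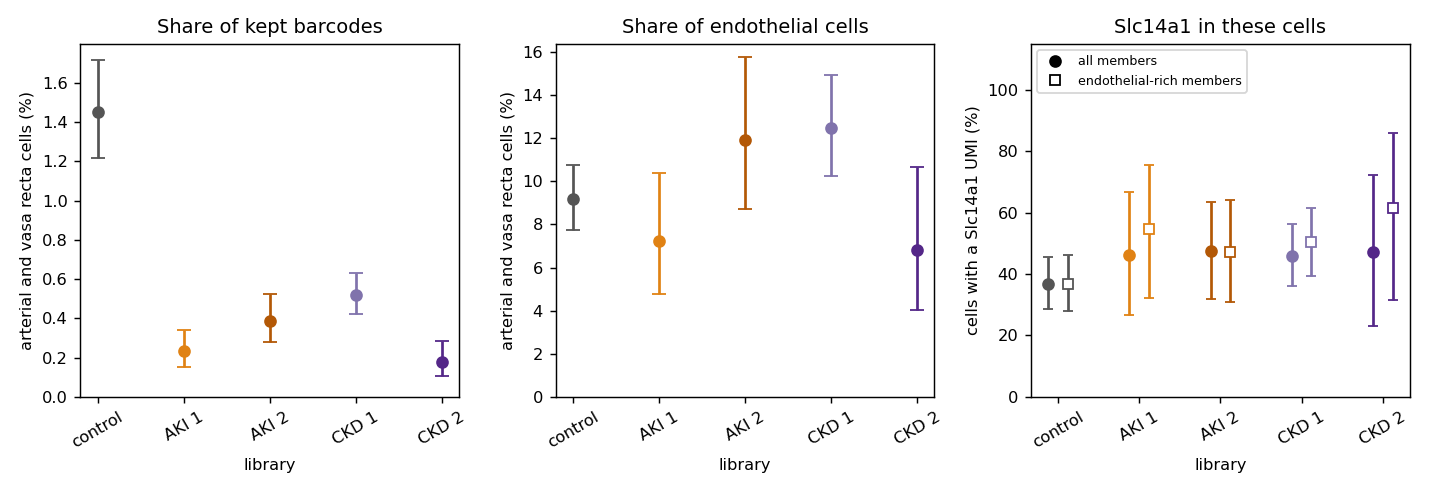
Arterial and vasa recta members per library (x axis) as a percentage of kept barcodes (left), as a percentage of endothelial cells (middle), and the percentage of members with a Slc14a1 UMI (right), with exact binomial 95% intervals as bars. The left panel has control at 1.45% above the other libraries at 0.179 to 0.518%, while the middle and right panels have overlapping intervals.

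Slc14a1, which the rule does not use, had a UMI in 36.8% of control members (49 of 133, 28.6 to 45.6%), in 46.2% (26.6 to 66.6%) and 47.6% (32.0 to 63.6%) of AKI members and in 46.0% (36.0 to 56.3%) and 47.1% (22.98 to 72.2%) of CKD members. The intervals of all 5 libraries overlapped. Without cells with markers of other cells the share was 30.4% (17.7 to 45.8%) in control and 41.2% and 43.75% in AKI. In CKD it was 68.75% (53.7 to 81.3%) and 66.7%, and CKD 1 did not overlap control. After thinning to 1500 UMIs a cell it was 31.6% in control, 42.3% and 40.7% in AKI and 29.1% and 85.7% in CKD, the last from 7 cells. In T lymphocyte-type barcodes, which should lack this gene, 1.77 to 3.86% had a UMI at a median of 3441 to 5620 UMIs per barcode, and in capillary cells 0 to 1.46%. The urea transporter was therefore above the level of cells that lack it in each library. Its level was 399 CPM in control, 753 and 637 in AKI and 819 and 645 in CKD. The higher values in all 4 injured libraries did not pass the test (log2 fold change 0.86 ± 0.32 SE, adjusted p = 0.263 in AKI and 0.98 ± 0.32 SE, adjusted p = 0.194 in CKD against control, edgeR quasi-likelihood test with Benjamini-Hochberg adjustment).

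The first comparison asked in which genes these cells differed from capillary endothelial cells of the same libraries. They carried descending vasa recta, Notch, vasoactive and elastic matrix genes at high levels, and had capillary genes at lower levels than capillary cells. Among endothelial-rich cells 1421 of 6638 genes passed (adjusted p under 0.05, edgeR quasi-likelihood test with library as a block), 735 higher (11.1%) and 686 lower (10.3%) in members, which is 21.4% in all. Of the 1421 genes 813 did not overlap, that is, every library value of a class lay above every library value of the other. The share without overlap over all genes tested was not counted, so no support is read from this count or from a lack of overlap below. With all members 796 of 8027 passed (9.92%), 430 higher (5.36%) and 366 lower (4.56%), and 506 without control, 489 without CKD 1 and 1342 without CKD 2. Genes of the gates were left out. The filter on low counts could be passed through a single class, so genes with UMIs almost only in that class could pass only as higher in it. This holds, among others, for Slc14a1, Bmx, Fbn1, Stmn2 and Pde3a in members and for Aplnr and Il33 in capillary cells. Their direction was the only outcome open to them. Both classes were picked by gate genes in the same barcodes, so the differences describe cells chosen in this way.

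Of 9 descending vasa recta genes 7 were higher in members, with a median log2 difference of 1.70 beside -0.01 over all genes. Slc14a1 was 399 to 819 CPM in the 5 libraries of members and 0 to 3.62 in capillary cells (log2 difference 8.88 ± 0.26 SE, adjusted p = 6.41e-13). Aqp1 was 4352 to 6613 against 1.56 to 68.8 (log2 difference 8.19 ± 0.31 SE, adjusted p = 8.63e-12). Scin, the actin-severing protein scinderin, was 325 to 695 against 3.12 to 30.3 (log2 difference 5.75 ± 0.31 SE, adjusted p = 3.24e-10). For these 3 genes no member library reached down to a capillary library. The osmolyte genes followed at smaller sizes. Akr1b3, the aldose reductase that makes sorbitol, was 18.2 to 713 against 32.7 to 74.3, and overlapped because CKD 2 had only 2 UMIs. Slc5a3, the myo-inositol carrier, was 54.5 to 218 against 14 to 69.2, and Slc6a6, the taurine carrier, 329.8 to 779.7 against 198 to 346, both with an overlap. All 3 passed, and Slc5a3 did not over all members (adjusted p = 0.0808). The small heat shock protein Cryab passed at a log2 difference of 0.91 (adjusted p = 0.00373) but not over all members (adjusted p = 0.983). Nfat5, the transcription factor of the response to hypertonicity, was 277 to 388 against 290.5 to 466 and Hspa4l 0 to 22 against 14 to 23.2, and neither passed.

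Of 28 arterial identity genes 26 were tested, and 21 were higher and 1 lower in members (median log2 difference 2.64). Among Notch ligands and receptors, Jag1 was 236 to 512 CPM against 6.31 to 14.1 in capillary cells (log2 difference 5.14 ± 0.20 SE, adjusted p = 8.63e-12) and Jag2 118 to 249 against 8.83 to 42.1. Dll4, the ligand of tip and arterial cells, differed less, at 122 to 246 against 109.9 to 147, and passed in endothelial-rich cells only (adjusted p = 0.0148, and 0.257 over all members). Notch4 was 154 to 199 against 86.6 to 114, and the Notch target Hey1 27.3 to 67.9 against 1.26 to 16.8. Notch1 (212 to 343 against 223 to 295) and the arterial ephrin Efnb2 (118 to 306 against 81.3 to 261) overlapped between the classes and did not pass. Jag1, Jag2, Notch4 and Hey1 did not overlap, whereas Notch1 and Efnb2 did.

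Among receptors, kinases and secreted factors, the kinase Bmx was 63.6 to 188 in members and at 0 in all 5 capillary libraries, at least 192-fold higher by a floor of 3 UMIs over the capillary group. The growth factor Vegfc was 81.8 to 246 against 10.9 to 17.7, the chemokine Cxcl12 36.3 to 260.2 against 0 to 3.62, and endothelin 1 (Edn1), a strong vasoconstrictor, 241 to 378 against 1.56 to 60.6. None of these 3 overlapped between the classes. Sema3g was 323 to 666 against 30 to 122, the lipoxygenase Alox12 43.1 to 72.7 against 3.12 to 15.2, the BMP9 receptor Acvrl1 187 to 249.7 against 118 to 137, and Tm4sf1 2299.7 to 3283 against 951 to 1389.6, all higher, with Acvrl1 not passing over all members (adjusted p = 0.0658). Tspan8 was 584 to 1054 against 1.56 to 31.8 and Crip1 527 to 1909 against 222 to 326. Nrp1, the VEGF and semaphorin co-receptor, was the list's lower gene, at 158 to 495 against 246 to 1095 (log2 difference -0.77 ± 0.16 SE, adjusted p = 0.00158, and adjusted p = 0.0969 over all members). Sox18 (105 to 254 against 179 to 224) and Unc5b (36.3 to 66.9 against 32.6 to 54.6) overlapped and did not pass, and Heyl and Cytl1 had enough UMIs in too few libraries to be tested, with Heyl at 0 to 9.09 in members.

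Several matrix genes did not overlap between the classes either. Elastin (Eln) was 81.8 to 572 CPM in members and 2.53 to 9.06 in capillary cells (log2 difference 5.17 ± 0.32 SE, adjusted p = 1.4e-09). Fibulin 2 (Fbln2) was 93.6 to 671 against 1.81 to 12.6, and matrix Gla protein (Mgp), which binds BMPs and restrains calcification, 860.1 to 3478 against 4.68 to 38.9. Fibrillin 1 (Fbn1) was 46.7 to 98 and at 0 in all capillary libraries, at least 123-fold higher by the same floor. Of the 5 elastic fibre genes tested 4 were higher and Emilin1 was lower (adjusted p = 0.174 over all members), while 8 of 12 basement membrane genes were lower, among them Col4a1 at 356 to 566 against 672 to 1523. Col18a1, the source of endostatin, went the other way at 313 to 486 against 3.12 to 44.2. Stmn2, known as a neuronal microtubule protein, was among the 6 largest rises, with 689 UMIs in members and 1 in capillary cells, a ratio of 1475 with a counting interval of 264 to 58323. The phosphodiesterase Pde3a had 192 UMIs in members and 1 in capillary cells (ratio 411, interval 72.9 to 16313). Clu, a secreted chaperone, was 201 to 452 against 34.3 to 224 (adjusted p = 0.000469, and 0.823 with the direction turned over all members).

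All 12 capillary and venous genes tested were lower in members. Rgcc was 15.4 to 81.8 against 1558 to 2187, at or below the 124 to 233 of T lymphocyte-type barcodes. Kdr, the main VEGF receptor, was 162 to 362 against 822 to 2019.8, Emcn, endomucin, 399.8 to 591 against 1461 to 2545, and Igfbp3 689.8 to 1245 against 1576 to 4200.5. None of the 3 overlapped between the classes. The apelin receptor Aplnr was at 0 in every member library against 65.5 to 121, at least 62.8-fold lower by the floor. Il33, the alarmin of the interleukin 1 family, had 2 UMIs in members and 429 in capillary cells (ratio 100.2, interval 27.6 to 830.3). Car8, Inhbb and Col13a1 were the other large falls, with 1, 4 and 1 UMIs in members. Of 16 pan-endothelial genes 2 were higher and 9 lower.

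Flow-responsive genes differed too. Klf2, a transcription factor induced by laminar shear, was 3022 to 7669 in members and 1589 to 4553 in capillary cells, and Klf4 1484 to 3267 against 582 to 1548 (log2 differences 0.73 ± 0.08 SE, adjusted p = 2.35e-06 and 1.11 ± 0.11 SE, adjusted p = 6.61e-07). Nos3, endothelial nitric oxide synthase, was 85.6 to 198 against 53.3 to 111, overlapping, and passed only in endothelial-rich cells (adjusted p = 0.00927, and 0.233 over all members). Of 13 flow and vasomotor genes tested, 7 were higher and 4 lower in members. Of the glomerular endothelial genes 4 of 5 were higher, Plat, Pi16, Tbx3 and Smad6, and Ehd3 was lower, and over all members Smad6 (adjusted p = 0.0569) and Ehd3 (0.0864) did not pass. Pi16 was 18.2 to 383 against 4.68 to 21.9.

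**Figure D2:**
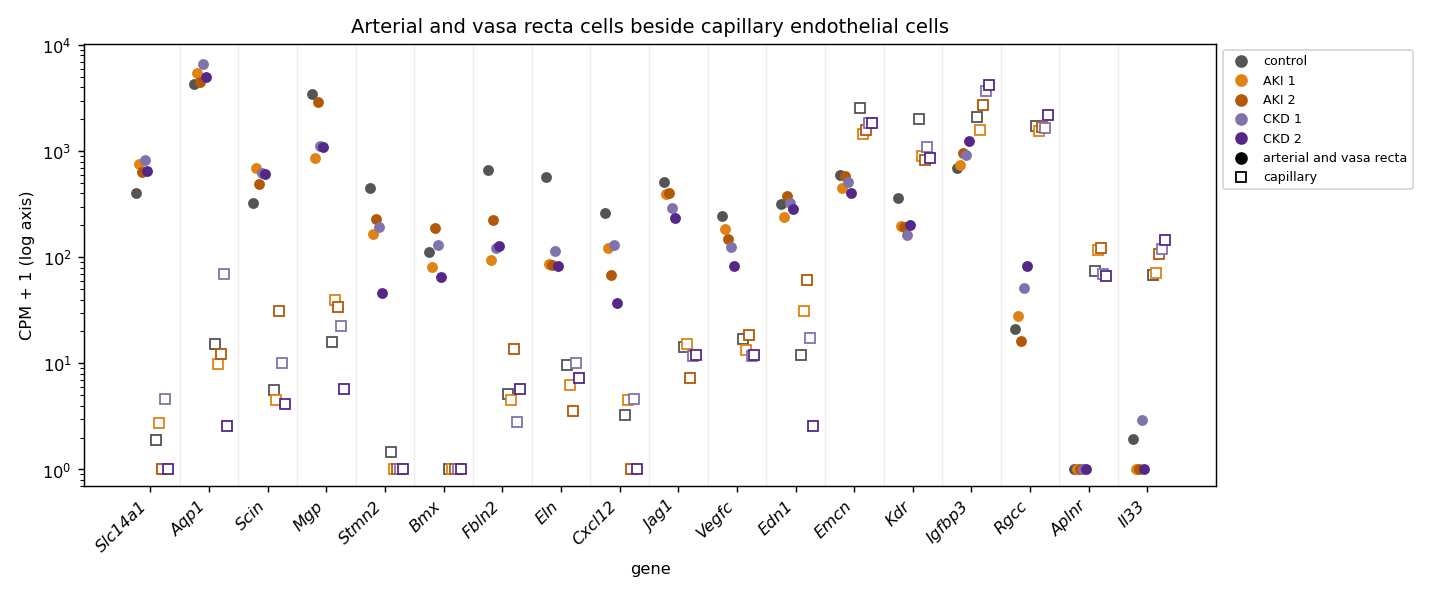
Levels of 18 genes in endothelial-rich arterial and vasa recta cells (filled circles) and capillary endothelial cells (open squares) of the 5 libraries (colours), as CPM plus 1 on a log axis. Slc14a1, Aqp1, Scin, Mgp, Jag1 and Edn1 lie higher in every member library than in any capillary library, and Rgcc, Aplnr and Il33 lower.

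The members fell into at least 2 kinds by Slc14a1, which was split after the values were seen and is described with no test. Cells with a Slc14a1 UMI numbered 42 in control, 12 and 18 in AKI and 43 and 8 in CKD, and cells without 72, 10, 20, 42 and 5. Cells with the gene were deeper, at a median of 5120 to 9019 UMIs against 2980 to 5588, so some cells without a UMI may still express the gene. Aqp1 was 6837 to 11089 CPM in cells with Slc14a1 and 788 to 2246 in cells without, and Scin 819 to 1027 against 22 to 192. The 3 vasa recta markers therefore went together in all 5 libraries. Slc5a3 was 61.9 to 338 against 36.9 to 62.6, and Slc6a6, in contrast, 158 to 531 against 443 to 1072, lower with Slc14a1 in all 5 libraries.

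Cells without Slc14a1 carried the elastic and large-vessel genes. Mgp was 0 to 221 with Slc14a1 and 2032 to 5583 without. Eln was 6.9 to 44.3 against 126 to 851, Fbln2 13.8 to 46.4 against 222 to 1004 and Ltbp4, which tethers latent TGF-β to the matrix, 6.98 to 52.6 against 264 to 1749. Stmn2 was absent from Slc14a1 cells but for 1 UMI in control, and was 110.1 to 692 in the others. None of these 5 genes overlapped between the kinds. Jag1 was 127 to 209.5 against 330.3 to 726, and Clu 15.5 to 108 against 420.0 to 671. Higher in all 5 libraries with Slc14a1 were Ccn2 (286 to 607 against 0 to 200.3), Hspg2, the basement membrane proteoglycan perlecan (232 to 349 against 44 to 209.7), Esm1 (114 to 774 against 0 to 102) and Notch4 (216 to 251 against 36.9 to 190.1).

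**Figure D3:**
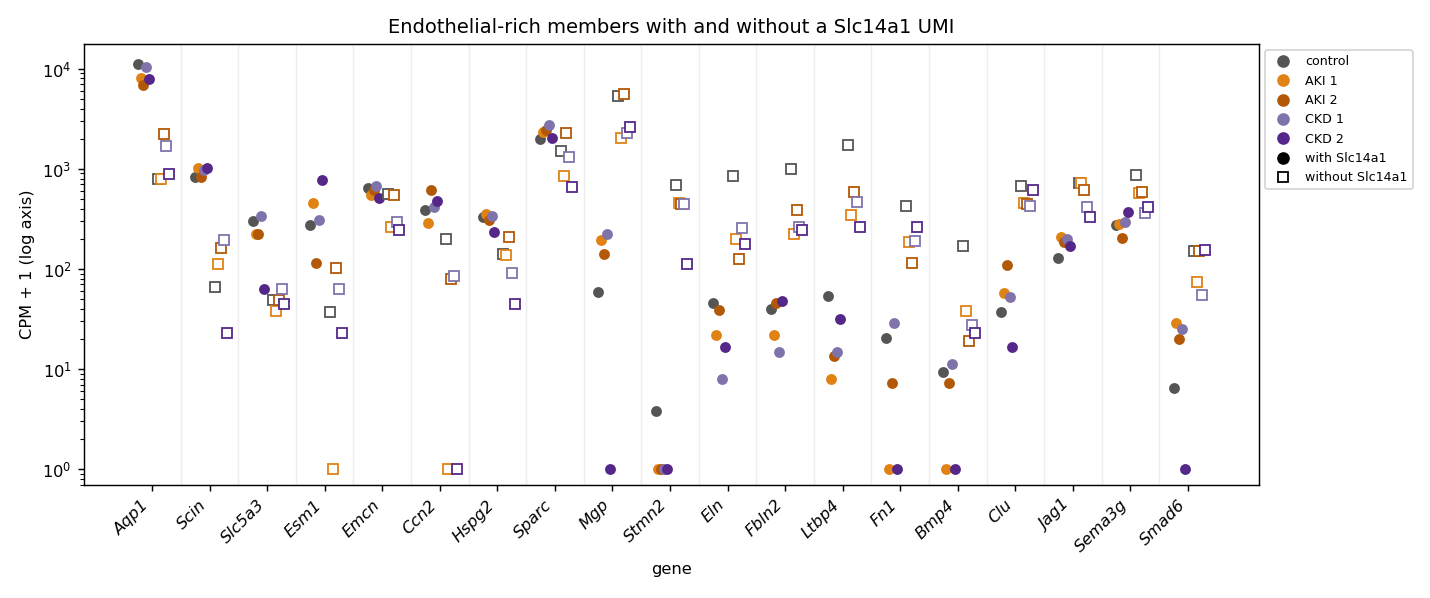
Levels of 19 genes in endothelial-rich members with a Slc14a1 UMI (filled circles) and without (open squares) in the 5 libraries (colours), as CPM plus 1 on a log axis. Aqp1 and Scin are higher with Slc14a1, and Mgp, Stmn2, Eln, Fbln2, Ltbp4 and Clu higher without, with no overlap between the kinds.

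A further set of cells had at least 3 UMIs of Ehd3, Sost and Pi16, a limit also set after the values were seen. Ehd3 and Pi16 are known from glomerular endothelium, and Sost encodes the Wnt inhibitor sclerostin. It held 34 of 114 control members (29.8%, exact binomial 95% interval 21.6 to 39.1%), 2 of 22 and 8 of 38 AKI members, 10 of 85 CKD 1 members and 0 of 13 CKD 2 members, and 1, 1, 2 and 2 of these cells in the first 4 libraries also had a Slc14a1 UMI. Mgp was 6368 in control, 1004 and 6519 in AKI and 3786 in the CKD 1 library in this set and Stmn2 783 in control, 438 and 539 in AKI and 939 in the CKD 1 library. Outside them Mgp was 574 in control, 784 and 314 in AKI and 485 and 1090.4 in CKD. Among cells with neither these genes nor Slc14a1 Mgp was 1428 in control, 2160.2 and 661 in AKI and 1076 and 2642 in CKD, so the set was above them in 3 of its 4 libraries and below them in AKI 1. A limit in UMIs favours deep cells: the median depth was 14344 UMIs in control, 38825.5 and 17210 in AKI and 8267.5 in the CKD 1 library in the set against 4343, 4583, 5588 and 3516 in the other members, and the 2 cells of AKI 1 were that library's deepest members. Thinned to 1500 UMIs a cell, an alternative added after the values were seen, the set held 5 of 110 control members (4.55%, 1.49 to 10.3%), 0 of 20 and 1 of 34 in AKI and 1 of 82 and 0 of 11 in CKD, with overlapping intervals, and before thinning the AKI 2 share (21.1%, 9.55 to 37.3%) also overlapped control. No order of shares is read from this. Acta2 was 419.9 in control, 3554 and 765 in AKI and 2484 in the CKD 1 library in the set, and 1 cell held all 276 of its UMIs in AKI 1.

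The second question was how the cells differed between injured and control kidneys. In endothelial-rich members 6 of 18 genes of an adhesion and NF-κB list passed as higher than control in both AKI and CKD. Of these, Cxcl2 and Tnfaip3 were below their levels in T lymphocyte-type barcodes. Among 17 immediate-early and heat shock genes 4 passed as higher in AKI and 7 in CKD. Lower in both were 3 of 6 elastic fibre genes and further genes whose UMIs lay largely in the Ehd3, Sost and Pi16 cells. Over all members 0 genes passed as higher by edgeR, and 24 in AKI and 15 in CKD by DESeq2. For AKI against control 113 of 6392 genes passed in endothelial-rich members (1.77%), 77 higher (1.2%) and 36 lower (0.563%), and for CKD against control 112 (1.75%), 67 higher (1.05%) and 45 lower (0.704%). Of these, 111 and 109 did not overlap between the groups, and the share without overlap over all genes tested was not counted. With a single control library such a gap is common, so no support is read from it. Both comparisons share the control library. A gene was tested when 1 library had enough UMIs, so genes with UMIs almost only in control could pass only as lower. In the same way, genes with too few UMIs in control for the filter could pass only as higher. Without CKD 1 or CKD 2, AKI against control gave 317 and 385 genes, and without AKI 1, AKI 2, CKD 1 or CKD 2 CKD against control gave 178, 186, 200 and 289. Over all members only 3 of 6800 genes passed for AKI (0.0441%) and 2 for CKD (0.0294%), all lower, and DESeq2 called 28 and 19. At an unadjusted p under 0.05 there were 388 and 487. DESeq2 on endothelial-rich members called 52 (45 higher, 7 lower) and 51 (42 higher, 9 lower).

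Of 24 genes of the adhesion and NF-κB list 18 were tested, and 6 passed as higher in AKI and in CKD: the neutrophil chemokines Cxcl1 and Cxcl2, the cytokine Il6, the inhibitors of NF-κB signalling Nfkbia and Tnfaip3, and Socs3, which restrains cytokine signalling. Of these, Cxcl2 and Tnfaip3 had more in T lymphocyte-type barcodes than in members, so no rise by members is read from either. The list had a median log2 fold change of 1.46 in AKI and 1.24 in CKD, beside 0.01 and 0.00 over all genes tested. Cxcl1, Cxcl2, Il6 and Tnfaip3 passed the filter on low counts only through injured libraries, so a rise was the only outcome open to them. Of the 6, RefSeq's promoter table (GRCm38.p6) holds the letters GGG, then any 2 bases, then TTTCC, a common form of the NF-κB site, on either strand within the 250 bases before a start for 5, all but Socs3, and for 4 of the 5 genes other than Cxcl2. That motif occurs in 1.41% of the 32851 promoters in the table, and of 8 other tested list genes with a promoter in the table, 2 (Csf1 and Nfkb2) held it. The 1.41% counts promoters, whereas a gene was counted when any of its promoters held the motif (Tnfaip3 has 2 and Nfkb2 has 3). The list was chosen as adhesion and NF-κB genes, so no support is read from these shares. The 120 bases up to the start of the 5 genes are shown 5′ to 3′ on the gene's strand, with each match in capitals. These 5 are shown because they hold the motif, and not for the size of their change:

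Cxcl1, chr5:90891125-90891244, plus strand: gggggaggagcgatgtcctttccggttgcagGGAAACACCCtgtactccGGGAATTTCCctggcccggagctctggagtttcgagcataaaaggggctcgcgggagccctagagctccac
Cxcl2, chr5:90903779-90903898, plus strand: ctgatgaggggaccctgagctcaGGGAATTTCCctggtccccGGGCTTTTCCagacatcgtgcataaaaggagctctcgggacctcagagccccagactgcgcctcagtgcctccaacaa
Il6, chr5:30012994-30013113, plus strand: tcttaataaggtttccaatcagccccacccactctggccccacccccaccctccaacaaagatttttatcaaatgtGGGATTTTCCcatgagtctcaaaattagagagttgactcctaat
Nfkbia, chr12:55492648-55492767, minus strand: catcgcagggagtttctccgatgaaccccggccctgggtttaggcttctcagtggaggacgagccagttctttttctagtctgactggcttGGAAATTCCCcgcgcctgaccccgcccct
Tnfaip3, chr10:19015411-19015530, minus strand: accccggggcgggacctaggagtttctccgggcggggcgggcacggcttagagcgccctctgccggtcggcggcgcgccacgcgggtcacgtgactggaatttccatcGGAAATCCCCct

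Cxcl1 holds 2 matches, 89 to 80 and 71 to 62 bases before the start, and its neighbour Cxcl2 holds 2, at 97 to 88 and 78 to 69. Il6 has 1 at 44 to 35, Nfkbia 1 at 29 to 20 and Tnfaip3 1 at 12 to 3 bases. The match at 71 to 62 of Cxcl1 and that at 97 to 88 of Cxcl2 are the same letters, GGGAATTTCC. A match is a description of these letters and not a measured binding site.

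Nfkbia had the highest counts of the 6, at 562 CPM in control, 1921 and 1858 in AKI and 1800.2 and 2108 in CKD. The 4 injured libraries lay within a narrow range, all above control (log2 fold change 1.81 ± 0.32 SE, adjusted p = 0.00583 in AKI and 1.88 ± 0.32 SE, adjusted p = 0.00464 in CKD). Socs3 was 345 in control, 1319 and 1391 in AKI and 940.0 and 1463 in CKD (log2 fold change 2.04 ± 0.36 SE, adjusted p = 0.00572 and 1.87 ± 0.36 SE, adjusted p = 0.00963). Capillary cells held the same order of values, with Nfkbia at 464 in control, 1979 and 1793 in AKI and 1812 and 2124 in CKD. T lymphocyte-type barcodes had Nfkbia at 788 to 1254 and Socs3 at 104 to 153, below every injured member library for both genes. All 6 rises were lost when every member was used, with adjusted p of 0.371 and 0.319 for Nfkbia and 0.258 and 0.468 for Socs3.

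Cxcl1 was 12.4 CPM in control, 125 and 138 in AKI and 136 and 45.4 in CKD, from 13 UMIs in control, 28 and 45 in AKI and 70 and 5 in CKD (log2 fold change 3.44 ± 0.50 SE, adjusted p = 0.0015 in AKI and 3.18 ± 0.50 SE, adjusted p = 0.00294 in CKD). Il6 was 3.83 in control, 26.7 and 61.5 in AKI and 44.8 and 54.5 in CKD, from 4 UMIs in control, 6 and 20 in AKI and 23 and 6 in CKD (log2 fold change 3.56 ± 0.75 SE, adjusted p = 0.0166 and 3.61 ± 0.75 SE, adjusted p = 0.0147). Il6 was higher in members than in capillary cells, the list's only gene so (log2 difference 1.14 ± 0.35 SE, adjusted p = 0.0256), and T lymphocyte-type barcodes had 0.771 to 3.47. Tnfaip3 was 9.57 in control, 134 and 76.9 in AKI and 74 and 118 in CKD (log2 fold change 3.45 ± 0.51 SE, adjusted p = 0.00185 and 3.21 ± 0.53 SE, adjusted p = 0.00334). Lymphocytes express Tnfaip3, at 471 to 867 in T lymphocyte-type barcodes, above members in every library. The part of their free RNA in its rise was not tested, and no rise by members is read from it. Cxcl2 was 3.83 in control, 57.9 and 33.8 in AKI and 101 and 90.9 in CKD (log2 fold change 3.50 ± 0.65 SE, adjusted p = 0.00757 and 4.66 ± 0.59 SE, adjusted p = 0.000638). T lymphocyte-type barcodes had 42.2 in control, 178 and 354 in AKI and 261 and 138 in CKD, above the members of the same library in all 5. These barcodes had no Ptprc or C1q limit, and their 8 myeloid markers summed to 389 to 3023 CPM. Whether members express Cxcl2 was not tested, and no rise by these cells is read from its level. For Cxcl1, members were above T lymphocyte-type barcodes in all 5 libraries (5.59 to 46.3 in the latter). Adjusted p over all members was 0.123 and 0.105 for Cxcl1, 0.487 and 0.47 for Il6 and 0.0686 and 0.105 for Tnfaip3. Over 8 or 9 alternatives the adjusted p of the 6 genes ran from 4.98e-14 to 0.487.

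Nfkbia and Socs3 were higher in both kinds of member. In cells with Slc14a1, Nfkbia was 681 in control, 2054 and 1821 in AKI and 1976 and 2383 in CKD, Socs3 421 in control, 1159 and 1164 in AKI and 917 and 1392 in CKD and Tnfaip3 11.1 in control, 112 and 88.5 in AKI and 62.1 and 108 in CKD. In cells with neither Slc14a1 nor the Ehd3, Sost and Pi16 genes, Nfkbia was 405 in control, 1276 and 1393 in AKI and 1593 and 1718 in CKD and Socs3 577 in control, 1056 and 1357 in AKI and 739 and 1563 in CKD. Every injured library was above control in each of these 5 comparisons. Of the adhesion molecules, Icam1 and Vcam1 did not pass in members, and Sele had too few UMIs to be tested. Icam1 was 107 in control, 339 and 228 in AKI and 251 and 191 in CKD in members and 209 in control, 765 and 660.4 in AKI and 603 and 882 in CKD in capillary cells, with control the lowest library in both (adjusted p = 0.0523 and 0.158 in members). In cells with Slc14a1 it was 179.9 in control, 328 and 291 in AKI and 372 and 294 in CKD, again with control the lowest. Vcam1 was 284 in control, 249.6 and 197 in AKI and 202 and 90.9 in CKD in members, with control the highest library, while in capillary cells it was 91.1 in control, 394 and 456 in AKI and 308 and 656 in CKD, with control the lowest. E-selectin (Sele) had 6 UMIs in all members together, 4 in control and 2 in AKI 2, and was 10.5 in control, 102 and 111 in AKI and 119.6 and 161 in CKD in capillary cells. The difference between the classes in the change from control was not tested.

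Lrg1, a secreted glycoprotein that modifies TGF-β signalling in endothelium, was among the 6 largest rises in both comparisons. It was 4.78 CPM in control, 258 and 209 in AKI and 113 and 54.5 in CKD, from 5 UMIs in control, 58 and 68 in AKI and 58 and 6 in CKD, with control the lowest (log2 fold change 5.58 ± 0.53 SE, adjusted p = 1.27e-05 in AKI and 4.32 ± 0.56 SE, adjusted p = 0.000638 in CKD, with 0.0686 and 0.197 over all members). Capillary cells had 5.92 in control, 194 and 364 in AKI and 250.01 and 493 in CKD, and T lymphocyte-type barcodes 0 to 1.49. In AKI 1 and in CKD 1, 1 cell held 44.8% of the Lrg1 UMIs of members. Myc, the growth transcription factor, rose in AKI (5.74 in control, 44.6 and 98.4 in AKI and 33.1 and 45.4 in CKD, log2 fold change 3.69 ± 0.64 SE, adjusted p = 0.00539), with 40 to 58.4 in T lymphocyte-type barcodes. Lrg1 and Myc also passed the filter on low counts only through injured libraries, so a rise was the only outcome open to them.

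**Figure D4:**
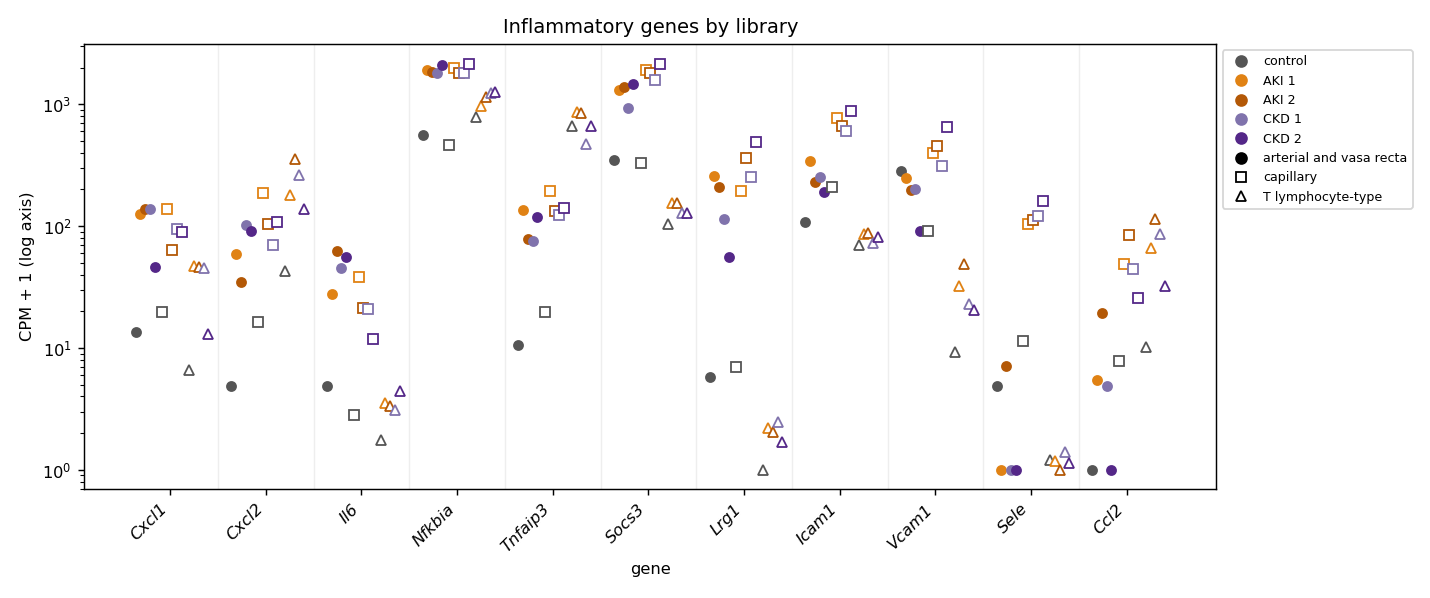
Levels of 11 inflammatory genes per library (colours) in endothelial-rich arterial and vasa recta cells (filled circles), capillary endothelial cells (open squares) and T lymphocyte-type barcodes (open triangles), as CPM plus 1 on a log axis. Control is lowest for Cxcl1, Il6, Nfkbia, Tnfaip3, Socs3 and Lrg1 in members and in capillary cells, while Cxcl2 and Tnfaip3 are higher in T lymphocyte-type barcodes than in members of the same library.

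Some immediate-early and heat shock genes were also higher. Of 17 such genes tested 4 rose in AKI (Atf3, Ier3, Nr4a1 and Dnajb1) and 7 in CKD (Egr1, Atf3, Ier3, Hspa1a, Hspa1b, Dnajb1 and Hsp90aa1), and the other fold changes were also positive, with a median log2 fold change of 1.26 in AKI and 1.40 in CKD. Atf3, a stress transcription factor, was 1247 CPM in control, 4782 and 3203 in AKI and 2836 and 4789 in CKD (log2 fold change 1.74 ± 0.38 SE, adjusted p = 0.0237 and 1.70 ± 0.38 SE, adjusted p = 0.0272). Ier3 was 509.9 in control, 1439.5 and 1246 in AKI and 1397 and 1781 in CKD (log2 fold change 1.46 ± 0.33 SE, adjusted p = 0.0272 and 1.72 ± 0.33 SE, adjusted p = 0.0103). Hspa1a, inducible HSP70, was 2317 in control, 5544 and 6922 in AKI and 4918 and 12622 in CKD (log2 fold change 2.02 ± 0.46 SE, adjusted p = 0.0271 in CKD). In T lymphocyte-type barcodes Hspa1a ran the other way, from 1489 in control to 606 to 1238 in the others. Such genes also respond to tissue dissociation, and that share of the difference was not tested. Over all members the adjusted p of Atf3, Ier3 and Hspa1a was 0.435, 0.435 and 0.435 in AKI and 0.568, 0.339 and 0.448 in CKD.

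Among p53 targets, which AAI adducts are known to induce in tubules, 2 of 13 tested rose in AKI and 1 in CKD. Cdkn1a, the cell cycle inhibitor p21, was 269.8 CPM in control, 1105 and 661 in AKI and 485 and 936 in CKD (log2 fold change 1.77 ± 0.43 SE, adjusted p = 0.0406 in AKI). Btg2 was 929.9 in control, 2264 and 2194 in AKI and 1689 and 2408 in CKD (log2 fold change 1.33 ± 0.33 SE, adjusted p = 0.0496 in AKI), and Plk2 142 in control, 392 and 505 in AKI and 319 and 827 in CKD (log2 fold change 2.03 ± 0.47 SE, adjusted p = 0.0326 in CKD). Gdf15, a stress cytokine, was 241 in control, 2335 and 1271 in AKI and 1103 and 99.95 in CKD and did not pass in either comparison (adjusted p = 0.05002 and 0.477), and 1 cell held 69.8% of its AKI 1 UMIs. Cebpd, a transcription factor of acute-phase and glucocorticoid responses, rose in both, at 287 in control, 1043 and 695 in AKI and 767 and 999.5 in CKD (log2 fold change 1.66 ± 0.36 SE, adjusted p = 0.0214 and 1.70 ± 0.36 SE, adjusted p = 0.0186). Over all members none of these genes passed, with an adjusted p of 0.435 for Cebpd in AKI.

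Of the elastic fibre list 3 of 6 genes tested fell in both AKI and CKD, with a median log2 fold change of -1.91 and -2.36. Elastin was 572 CPM in control, 84.7 and 83.1 in AKI and 114.8 and 81.8 in CKD, from 598 UMIs in control, 19 and 27 in AKI and 59 and 9 in CKD (log2 fold change -2.70 ± 0.33 SE, adjusted p = 0.00028 in AKI and -2.37 ± 0.33 SE, adjusted p = 0.00111 in CKD). Fbln2 was 671 in control, 93.6 and 222 in AKI and 123 and 127 in CKD (log2 fold change -1.99 ± 0.37 SE, adjusted p = 0.00757 and -2.35 ± 0.39 SE, adjusted p = 0.00334). Ltbp4 was 1162 in control, 129 and 305 in AKI and 210.2 and 127 in CKD (log2 fold change -2.33 ± 0.38 SE, adjusted p = 0.00371 and -2.61 ± 0.39 SE, adjusted p = 0.00188). Control was the highest library for all 3, by over 3 times the next for Ltbp4 and Eln. The adjusted p over all members was 0.185 and 0.2 for Eln, 0.446 and 0.204 for Fbln2, and 0.487 and 0.257 for Ltbp4, and over 9 alternatives that of the 3 genes ran from 3.8e-16 to 0.487.

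In the Ehd3, Sost and Pi16 cells, which held 50.1% of the control members' UMIs, 34.6% and 42.2% in AKI and 19.3% and 0% in CKD, Eln was 1019 in control, 90.1 and 153 in AKI and 485 in the CKD 1 library, Fbln2 1141 in control, 116 and 473 in AKI and 596 in the CKD 1 library and Ltbp4 1998 in control, 167 and 670.2 in AKI and 818 in the CKD 1 library, so control was highest inside the set too, though AKI 1 rests on 2 cells. The part of this share in the falls was not tested. Outside the set Eln was 123 in control, 81.8 and 32 in AKI and 26.5 and 81.8 in CKD, Fbln2 198 in control, 81.8 and 37.3 in AKI and 9.64 and 127 in CKD and Ltbp4 322 in control, 109 and 37.3 in AKI and 65.1 and 127 in CKD. Control stayed the highest library there, by less for Eln, from 123 to 81.8 at the nearest. In members with Slc14a1 Eln was 44.3 in control, 21 and 37.9 in AKI and 6.9 and 15.5 in CKD and Ltbp4 52.6 in control, 6.98 and 12.6 in AKI and 13.8 and 30.9 in CKD, with control highest. Fbln2 there was 38.8 in control, 21 and 44.3 in AKI and 13.8 and 46.4 in CKD, and control was not the highest. A lower level per cell and a smaller share of such cells cannot be told apart with 0 to 10 of them in each injured library.

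**Figure D5:**
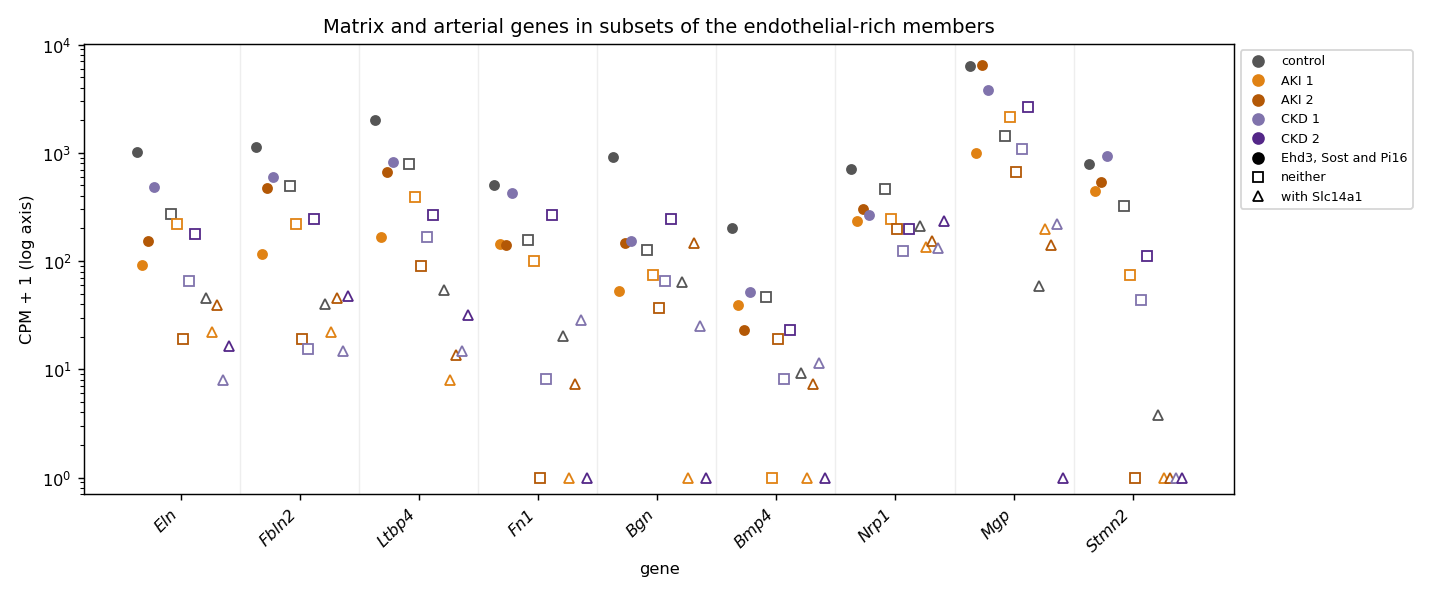
Levels of 9 matrix and arterial genes per library (colours) in endothelial-rich members with at least 3 UMIs of Ehd3, Sost and Pi16 (filled circles; AKI 1 rests on 2 cells and CKD 2 has none), with neither these nor Slc14a1 (open squares) and with a Slc14a1 UMI (open triangles), as CPM plus 1 on a log axis. Control is the highest library of the first set for Eln, Fbln2, Ltbp4, Bgn and Bmp4, and for Eln, Fbln2 and Ltbp4 the first set lies above cells with Slc14a1 in each of its 4 libraries.

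Other called falls sat largely in the same cells. Cytl1, a secreted cytokine-like protein, had 385 UMIs in control, 380 of them in the Ehd3, Sost and Pi16 set, 0 in both AKI libraries and 9 and 0 in CKD, at least 67.5-fold lower in AKI by a floor of 3 UMIs over the group (adjusted p = 1.22e-05 in AKI and 9.03e-05 in CKD, and 0.0427 in AKI over all members, where it also passed). DESeq2 gave it an adjusted p of 1 in both. Bgn, the matrix proteoglycan biglycan, was 501 in control, 31.2 and 111 in AKI and 60.3 and 99.95 in CKD (log2 fold change -2.67 ± 0.42 SE, adjusted p = 0.00282 and -2.72 ± 0.44 SE, adjusted p = 0.00334), and passed over all members for CKD (0.0337). In control 481 of its 524 UMIs were in the set, and outside it the level was 82.5 in control, 20.4 and 85.2 in AKI and 38.6 and 99.95 in CKD. Bmp4 was 112 in control, 13.4 and 12.3 in AKI and 17.5 and 9.09 in CKD (log2 fold change -3.04 ± 0.50 SE, adjusted p = 0.00371 and -2.74 ± 0.48 SE, adjusted p = 0.00536), with 105 of 117 control UMIs in the set. Fibronectin (Fn1) was 287 in control, 66.9 and 61.5 in AKI and 97.3 and 109 in CKD (log2 fold change -2.10 ± 0.33 SE, adjusted p = 0.00262 and -1.43 ± 0.32 SE, adjusted p = 0.0262). Outside the set Fn1 was 67.1 in control, 27.3 and 5.33 in AKI and 19.3 and 109 in CKD, and control was not the highest. Nrp1 was 495 in control, 160.4 and 197 in AKI and 158 and 218 in CKD (log2 fold change -1.40 ± 0.32 SE, adjusted p = 0.0333 and -1.38 ± 0.33 SE, adjusted p = 0.0413) and was highest in control in capillary cells too, at 1095 in control, 249 and 246 in AKI and 388 and 274 in CKD. Outside the set Nrp1 was 278 in control, 123 and 122 in AKI and 133 and 218 in CKD, with control highest. Cytl1 and Bmp4 passed the filter on low counts only through control, so a fall was the only outcome open to them.

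Of 27 arterial identity genes tested 5 fell in AKI (Nrp1, Eln, Ltbp4, Fbln2 and Cytl1) and 6 in CKD (the same with Crip1), and none rose, with a median log2 fold change of -0.52 and -0.85. The Notch genes Jag1 (512 in control, 397 and 406 in AKI and 290.0 and 236 in CKD), Dll4 (122 in control, 209 and 246 in AKI and 181 and 245 in CKD) and Notch4 (199 in control, 174 and 172 in AKI and 185 and 154 in CKD) did not pass. The vasa recta genes gave no call among 8 tested by edgeR or DESeq2, with 4 and 2 at an unadjusted p under 0.05 and a median log2 fold change of 0.64 and 0.42. Of 7 glomerular endothelial genes 2 fell in AKI and 3 in CKD: the sclerostin gene Sost had 85 UMIs in control, 1 in AKI and 6 in CKD, Ehd3 was 353 in control, 26.7 and 129 in AKI and 27.2 and 9.09 in CKD (log2 fold change -2.02 ± 0.45 SE, adjusted p = 0.0245 in AKI, where it turned to 0.31 after thinning to 1500 UMIs, and DESeq2 gave an adjusted p of 0.9997 in AKI and 0.172 in CKD), and Lpl, lipoprotein lipase, had 113 UMIs in control, 11 in AKI and 4 in CKD. Gkn3, an arterial gene of unsettled function, had 96, 1 and 4 UMIs, a control to AKI ratio of 50.5 with a counting interval of 8.84 to 2014. Adamts5 was 159 in control, 4.46 and 9.23 in AKI and 27.2 and 0 in CKD and Sfrp2, from 5 control cells, 78.5 in control, 8.91 and 0 in AKI and 5.84 and 0 in CKD. Sost, Gkn3, Adamts5 and Sfrp2 passed the filter on low counts only through control, so a fall was the only outcome open to them. In CKD, Ace, the angiotensin-converting enzyme (85.1 in control, 26.7 and 40 in AKI and 13.6 and 9.09 in CKD, log2 fold change -2.65 ± 0.52 SE, adjusted p = 0.0111), von Willebrand factor, Vwf (89.9 in control, 44.6 and 123 in AKI and 11.7 and 9.09 in CKD, log2 fold change -2.91 ± 0.57 SE, adjusted p = 0.0109), and Ramp2, the adrenomedullin co-receptor (623 in control, 334 and 351 in AKI and 212 and 164 in CKD, log2 fold change -1.60 ± 0.32 SE, adjusted p = 0.0109), fell. Calca, which encodes calcitonin and CGRP, had 55 UMIs from 5 control cells and 0 in CKD.

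Interferon-stimulated genes gave no call in either comparison among 34 tested by edgeR or DESeq2 (median log2 fold change 0.19 in AKI and 0.29 in CKD), and 2 had an unadjusted p under 0.05 in each. MHC class I genes likewise gave 0 of 16 by both tools, with 0 at an unadjusted p under 0.05, and basement membrane genes 0 of 10, with 1. Hypoxia and glycolysis genes gave 0 of 13, with 3 at an unadjusted p under 0.05 in each comparison. A count of 0 does not show that these genes did not differ. Of 23 TGF-β and mesenchymal genes tested, 1 rose and 4 fell in AKI and 1 rose and 3 fell in CKD. The rise in AKI was that of Ccn1, a matricellular protein, at 362 in control, 1177 and 735 in AKI and 738 and 881 in CKD (log2 fold change 1.46 ± 0.36 SE, adjusted p = 0.0447), and Bmp6 fell with Bmp4, Fn1 and Bgn, at 114.8 in control, 26.7 and 15.4 in AKI and 42.8 and 9.09 in CKD. MHC class II genes H2-Aa and H2-Ab1 rose in CKD, at 35.4 in control, 53.5 and 117 in AKI and 189 and 99.95 in CKD and 45 in control, 71.3 and 178 in AKI and 214 and 99.95 in CKD, with T lymphocyte-type barcodes higher still at 169.7 to 667 and 203 to 730.1. The part of RNA from other cells was not tested, and no rise by members is read from either gene.

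RNA of other cells moved with the groups. Egf, made by the distal nephron, was 283 in control, 4.46 and 0 in AKI and 9.73 and 0 in CKD in members (log2 fold change -7.01 ± 0.65 SE, adjusted p = 1.27e-05 and -5.05 ± 0.52 SE, adjusted p = 9.03e-05, with 0.00252 and 0.00819 over all members), 483 in control, 3.53 and 7.58 in AKI and 52.5 and 1.56 in CKD in capillary cells and 623 in control, 12.7 and 9.42 in AKI and 45.1 and 5.51 in CKD in T lymphocyte-type barcodes. Members were below the latter in every library, so no fall of expression by members is read from Egf. The loop and distal genes Umod, Slc12a1 and Slc12a3 fell likewise, 4 of 5 tested with Egf, and Klk1 fell over all members in AKI. The lymphocyte genes Ccl5 (6.7 in control, 53.5 and 86.1 in AKI and 335 and 72.7 in CKD), Rgs1 (1.91 in control, 89.1 and 33.8 in AKI and 56.4 and 36.3 in CKD), Cd52 (6.7 in control, 31.2 and 9.23 in AKI and 191 and 36.3 in CKD) and Rac2 (0.957 in control, 22.3 and 3.08 in AKI and 62.3 and 27.3 in CKD) passed as higher in AKI, CKD or both, beside 3034 to 6363, 913 to 1639, 1721 to 2969.9 and 599.6 to 954 in T lymphocyte-type barcodes. The 9 T and NK markers summed to 14.4 CPM of members in control and 132 to 551 in the others, with Cd3e at 0 in 4 of 5 libraries, and the 8 myeloid markers to 425 in control and 482 to 1068, with S100a8 at 0 in all 5. Their part in the results above was not tested. Hba-a2, a hemoglobin chain, passed as higher in AKI through 1 cell that held all 138 UMIs of AKI 1, and so did the other 2 hemoglobin genes called.

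CKD against AKI asked what changed in the 2 weeks after dosing. Few genes passed: 6 of 6392 in endothelial-rich members (0.0939%), 4 higher (0.0626%) and 2 lower (0.0313%), and 1 of 6800 over all members (0.0147%, Meg3), where 427 had an unadjusted p under 0.05 and DESeq2 called 4. The 6 became 1 without control, and 30, 21, 20 and 77 without AKI 1, AKI 2, CKD 1 and CKD 2. Meg3 and Rian, neighbouring imprinted RNAs, were lower: Meg3 had 67 UMIs from 1 cell in AKI 1, 99 in AKI 2, of which 94.9% came from 1 cell, and 2 and 0 in CKD, and Rian came from 1 cell in each AKI library. The AKI values of both genes therefore come almost wholly from 1 cell in each library. Spink1 and Gpx3, proximal tubule genes, were higher in CKD, with Spink1 at 37.3 in control, 8.91 and 36.9 in AKI and 218 and 72.7 in CKD in members and 111 in control, 207 and 163 in AKI and 457 and 57.9 in CKD in T lymphocyte-type barcodes, which were above members in 4 of 5 libraries. No list of endothelial genes gave a call by edgeR or DESeq2. The adhesion and NF-κB list had 0 of 18, with 1 at an unadjusted p under 0.05 and a median log2 fold change of -0.07, beside -0.005 over all genes. Elastic fibre genes had 0 of 6, with 1 at an unadjusted p under 0.05 (median -0.32), and arterial identity genes 0 of 27, with 2 (median -0.14). Vasa recta genes had 0 of 8, with 1 (median 0.10). Nfkbia had a log2 fold change of 0.07 ± 0.24 and Eln 0.33 ± 0.34 between CKD and AKI. In simulated counts of these depths, 65.9% of genes changed by 2 on the log2 scale were recovered in this comparison, and 87.5% of those changed by 3, so changes smaller than these were not always detectable.

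The last comparison asked whether the CKD against AKI change differed between members and capillary cells. In endothelial-rich cells 16 of 7486 genes passed (0.214%), 10 with a higher (0.134%) and 6 with a lower difference in members (0.0801%). Over all members 0 of 8440 passed by edgeR, with 254 at an unadjusted p under 0.05, and DESeq2 called 1. Without CKD 2 the 16 became 33, and over all members the 0 became 486 without CKD 1. Endothelin 1 held at 241 and 378 in AKI and 323 and 282 in CKD members, while capillary cells went from 30 and 60.6 to 16.3 and 1.56. Its difference of changes was 2.30 ± 0.52 SE, adjusted p = 0.0331 on the log2 scale (0.998 adjusted over all members). Igfbp7, an insulin-like growth factor binding protein of endothelium, was 2834 and 3126 in AKI and 2762 and 2608 in CKD members, and in capillary cells 624 and 827, then 341 and 223 (difference 1.21 ± 0.20 SE, adjusted p = 0.000662). In members Edn1 overlapped between AKI and CKD and Igfbp7 was slightly lower in CKD, while in capillary cells both CKD libraries lay below both AKI libraries for each gene. DESeq2 called none of the 16 in endothelial-rich cells, and over 9 or 10 alternatives their adjusted p ran from 5.01e-31 to 1.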

How the data were processed

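Barcoded 10x 3′ libraries of kidney cell suspensions (collagenase IV and DNase I, 40 µm strainer) were deposited by the authors as UMI counts per gene and barcode, 1 matrix per library, not normalized. The submitters' notes name Cell Ranger 7.2.0, STAR and GRCm39, whereas the AKI and CKD file headers give Cell Ranger 5.0.0 and the control's gene table mm10. Library totals were 90028670 to 121316769 UMIs, and no column belonged to no sample (0).

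Cells were gated as stated in the report (12 genes), and T lymphocyte-type barcodes had at least 2 UMIs of Cd3 genes. UMIs were summed per library and cell class, since cells are not replicates, and tested with edgeR 4.0.16 (quasi-likelihood, TMM, filterByExpr, Benjamini-Hochberg over all genes tested, threshold 0.05) in R 4.3.3. Groups were compared in 1 fit over 5 libraries, classes with library as a block, and the difference of changes over the 4 AKI and CKD libraries. Gate genes were not tested. Intervals are exact binomial (Clopper-Pearson, 95%, counting error only), with a floor of 3 counts for 0. DESeq2 1.42.0, other normalization, filters, cell limits, thinning to 1500 UMIs and leaving out libraries were alternatives. On simulated counts the edgeR step recovered, for AKI against control in endothelial-rich members (6392 genes), 70.5% of changes of 2 and 87.5% of changes of 3 on the log2 scale. No doublet caller was run, and the Plvap, Ptprc and C1q limits remove some mixed droplets.

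The members, gene lists and tests were chosen with earlier results of these data known. Genes were named by rule: per comparison the 6 largest rises and 6 largest falls among genes that passed and did not overlap between libraries, leaving out gate, mitochondrial, Gm and Rik genes, at most 4 genes per list by p, and every arterial identity and vasa recta gene. Genes named for the Slc14a1 and the Ehd3, Sost and Pi16 sets were picked after their values were seen, as were Vcam1, Sele and Cldn5. Some genes that the rule names are not reported here. Python 3.11.15, scipy 1.17.1 and matplotlib 3.10.9 were used. Promoters came from RefSeq (GRCm38.p6).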

Additional observations from a re-analysis of the deposited data

Results flagged for a closer look

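The change from AKI to CKD differed between arterial and vasa recta cells and capillary endothelial cells for 16 genes among endothelial-rich cells, by edgeR's quasi-likelihood test of the difference itself with Benjamini-Hochberg adjustment. The difference is the log2 fold change in members minus that in capillary cells, with 2 libraries in each group, and for each gene named here the adjusted p was 0.998 over all members and 1 by DESeq2. Levels are CPM.

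Igfbp7, a secreted binding protein of endothelium, had a difference of 1.21 (adjusted p = 0.000662), with 2834 and 3126 in AKI and 2762 and 2608 in CKD in members and 624 and 827 in AKI and 341 and 223 in CKD in capillary cells. Edn1, endothelin 1, had a difference of 2.30 (adjusted p = 0.0331), and Creb5, a transcription factor, of 3.66 (adjusted p = 0.0331), with 71.3 and 49.2 in AKI and 85.6 and 72.7 in CKD in members and 42.4 and 17.7 in AKI and 5.43 and 0 in CKD in capillary cells. For these 3 genes capillary levels were lower in both CKD libraries.

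Lower differences were those of Igfbp5, at -2.57 (adjusted p = 0.00318), with 147 and 763 in AKI and 237 and 9.09 in CKD in members and 1530.0 and 993 in AKI and 3029 and 1955 in CKD in capillary cells, where CKD 2 members had 1 UMI. Fabp4, a fatty acid carrier of capillary endothelium, had a difference of -0.83 (adjusted p = 0.0331), which turned to 0.049 after thinning to 1500 UMIs, with 2424 and 2332 in AKI and 1717 and 1027 in CKD in members and 4819.7 and 5088 in AKI and 4908 and 5175 in CKD in capillary cells. Kitl, the ligand of the KIT receptor, had -1.51 (adjusted p = 0.0476), with 249.6 and 228 in AKI and 162 and 154 in CKD in members. Ctla2a, a protease inhibitor, had -1.25 (adjusted p = 0.00718), with 361 and 446 in AKI and 195 and 191 in CKD in members and 975 and 1005 in AKI and 1089 and 1191 in CKD in capillary cells. Members were lower in both CKD libraries for Fabp4, Kitl and Ctla2a. Gdf15 had -2.12 (adjusted p = 0.00723), which turned to 0.37 over all members, with 2335 and 1271 in AKI and 1103 and 99.95 in CKD in members, and 1 cell held 69.8% of the AKI 1 UMIs.

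The remaining genes reported here are known from tubules or leukocytes, or were at or below the level of T lymphocyte-type barcodes. The proximal tubule genes had differences of 1.75 for Gpx3 (adjusted p = 0.000499), 2.79 for Spink1 (0.000587), 4.02 for Pdzk1ip1 (0.00312) and 3.41 for Ugt2b38 (0.0331). Single cells held 33.9% and 82.5% of the Gpx3 UMIs in the CKD members, and T lymphocyte-type barcodes had 1487 and 1429.5 in AKI and 2644 and 455 in CKD against 365 and 406 in AKI and 1580.3 and 936 in CKD in members. S100a4, which leukocytes and fibroblasts express, had a difference of -2.50 (0.00103), and Hmgb2, a chromatin protein of dividing cells, of 1.54 (0.00319), with 1244 and 1278 in AKI and 1987 and 2024 in CKD in T lymphocyte-type barcodes against 245 and 160.0 in AKI and 374 and 445 in CKD in members. Cxcl2 had 1.91 (0.0331). The part of RNA from other cells in these differences was not tested.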

How the results depend on the processing

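The number of genes called depended on the cells and the libraries more than on the normalization. Over all members, CKD against AKI gave 1 gene, 4 by DESeq2, 170 with no filter on low counts, 67 with the replicate block, 31 without cells that held markers of other cells and 6 among endothelial-rich cells. AKI against control gave 3, and 28, 144 and 208 by DESeq2, with no filter and without cells with other markers, 13 with at least 4 arterial UMIs and 113 among endothelial-rich cells. CKD against control gave 2, and under the same 5 alternatives 19, 222, 260, 29 and 112. Members against capillary cells gave 796, with 1564 under no filter and 1421 among endothelial-rich cells. The difference of changes gave 0, with 1 by DESeq2, 79 under no filter, 2 without cells with other markers and 16 among endothelial-rich cells. Among endothelial-rich members, CKD against AKI gave 6, 48 with no filter and 17 with the replicate block. AKI against control gave 113, and 52, 222 and 61 by DESeq2, with no filter and with each cell thinned to 1500 UMIs. CKD against control gave 112, and 51, 245 and 62. Thinning gave 439 genes for members against capillary cells and 2 for the difference of changes, for which DESeq2 gave 0 and 406 genes had an unadjusted p under 0.05. Thinning leaves fewer genes to test, 1337 for the group comparisons.

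Leaving out 1 library gave 1 to 390 genes over all members for CKD against AKI (390 without CKD 1), 4 to 380 for AKI against control (380 without CKD 2), 15 to 519 for CKD against control (519 without CKD 1), 489 to 1342 for members against capillary cells (489 without CKD 1, 1342 without CKD 2) and 0 to 486 for the difference of changes (486 without CKD 1). Among endothelial-rich members the ranges were 1 (without control) to 77 (without CKD 2), 100 to 385 (without CKD 2), 178 to 289 (without CKD 2), 1235 to 1362 and 16 to 33 (without CKD 2). The CKD minus AKI difference in the share of members with a Slc14a1 UMI was -0.357 percentage points, and -1.09 to 0.376 when 1 library was left out. It was 1.67 with at least 2 arterial UMIs, 3.75 with at least 4, 1.61 with a mitochondrial limit of 15%, 5.11 in endothelial-rich members, 15.9 after thinning and 25.2 without cells with other markers. The difference in the share of kept barcodes was 0.0387 and ran from -0.131 to 0.208 with 1 library left out.

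Of 146 results for single genes, 85 kept their direction and call with DESeq2, 141 with DESeq2's size factors in edgeR and 146 with no filter. Of 140 found in endothelial-rich members, 41 also held over all members. The direction turned for Clu against capillary cells over all members (-0.45), Gdf15 in the difference of changes over all members (0.37), and, after thinning, Ehd3 in AKI against control (0.31) and Fabp4 in the difference of changes (0.049). The cause was not tested. Libraries with the same replicate number did not deviate together over all genes (correlation -0.0687 over all members and -0.0405 in endothelial-rich members). This cannot exclude a shared batch that bears on some genes, and the replicate block is given as counts only. With 13 to 114 endothelial-rich members per library, changes in genes with few UMIs were not detectable.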
